A study of Mus musculus with 6 samples.

Results

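The genes described here are 10 granzymes and cytotoxic effector genes, namely Gzmb, Gzma, Gzmk, Prf1, Nkg7, Ctsw, Klrg1, Ifng, Srgn and Serpinb9. They were taken by gene symbol from the deposited RNA-Seq table, and all 10 were among its 15319 genes. The libraries came from regulatory T cells (Tregs) sorted from lung-colonizing tumors. They comprised 3 libraries from WT mice and 3 from cKO mice. WT mice carried Foxp3Yfp-Cre alone. The cKO mice carried Foxp3Yfp-Cre together with floxed alleles of Xrcc6, the gene for the DNA end-binding protein Ku70, so that Xrcc6 was deleted where Foxp3 is active. Both groups were on a C57BL/6J background and received LLC cells, a mouse lung carcinoma line, through the tail vein at 8 to 10 weeks of age, and tumors were taken on day 21. Neither the labels nor the methods say how many mice went into a library, so the p-values below measure the spread between these libraries.

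Cytotoxic lymphocytes kill by releasing granules into the contact with a target cell. Perforin, the product of Prf1, forms pores in the target membrane, and granzymes, which are serine proteases, enter and cleave proteins that start cell death. The proteoglycan serglycin, from Srgn, packs granzymes into the granule, and the serpin encoded by Serpinb9 blocks granzyme B that leaks inside the cell that made it. Tregs can use granzyme B against other lymphocytes, and transcripts of these genes are known from activated Tregs.

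Total counts were 19032620 to 21707706 in the WT group and 20762042 to 23159815 in the cKO group, and the 10 genes took 0.234% to 0.369% of the counts of a library. Values are CPM, that is counts set to a common library total with edgeR's TMM scaling. Where a library had 0 counts of a gene, the upper limit of 3 counts corresponded to 0.133 to 0.156 CPM, which covers counting error only. Xrcc6 was at 20.9, 63.1 and 23.8 CPM across WT replicates 1 to 3, against 5.24, 3.51 and 4.18 CPM across cKO replicates 1 to 3. WT replicate 2 stood apart, with 11513 genes detected against 14442 to 14737 in the other libraries. Among genes at 1 to 2 CPM on average in the other libraries, 47.7% had 0 counts in WT replicate 2, as did 18.0% of genes at 4 to 8 CPM. In each other library, the same shares were at most 1.94% and 0%. Fold changes of the 10 genes are therefore given with and without this library. The Treg transcription factor gene Foxp3 was present in every library, at 150 to 282 CPM.

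Ordered by level per length, the genes ran from Srgn down to Gzmk. Srgn was at 880.4 ± 130.1 CPM per kb of exon (SD over the 6 libraries), and Nkg7, which encodes a membrane protein of the granule, at 378 ± 242 CPM per kb. Ctsw, the gene of the lysosomal protease cathepsin W, was at 105 ± 53.6, Klrg1, which encodes an inhibitory lectin-like receptor of differentiated effector cells, at 91.3 ± 8.60, and Ifng, the interferon-γ gene, at 66.8 ± 19.2 CPM per kb. Gzmb followed at 58.9 ± 28.4 and Serpinb9 at 27.1 ± 11.8 CPM per kb. Gzma, Prf1 and Gzmk formed a separate low group at 2.38 ± 1.25, 1.87 ± 1.01 and 0.75 ± 0.725 CPM per kb. The lowest library for Serpinb9 (10.7 CPM per kb) lay above the highest for Gzma (4.44 CPM per kb). All other neighbors in this order overlapped in their ranges. Within each of the 6 libraries Srgn was nevertheless above Nkg7, Nkg7 above Ctsw, and Gzmb above Serpinb9, whereas Gzma was above Prf1 in 3 of the 6. Gzmb thus had the highest transcript level of the granzyme genes listed in the table, and the perforin transcript was present at a low level. These are levels of bulk libraries of sorted Tregs, and the share from other cells was not tested.

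**Figure D1:**
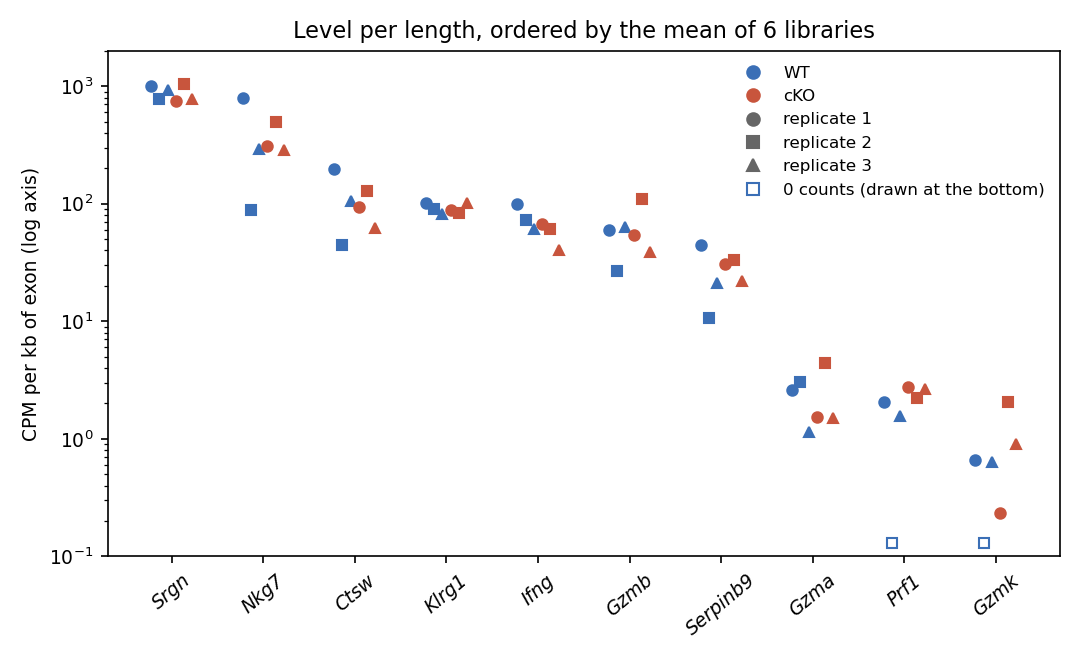
Level of each gene per library, in CPM per kb of exon on a log axis, with the genes ordered by their mean over 6 libraries. Blue points are WT libraries, red points are cKO libraries, the shape gives the replicate number, and open squares mark 0 counts in WT replicate 2. Srgn is highest with a mean of 880.4 CPM per kb, and Gzma, Prf1 and Gzmk lie below every library of Serpinb9.

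The promoter sequences of the 3 granzyme genes and of the granzyme B inhibitor gene are shown to set their starts side by side. Each is 250 bases before the RefSeq transcription start on GRCm38.p6, read on the gene's strand. They lie at chr14:56262335-56262584 on the minus strand for Gzmb, chr13:113100982-113101231 on the minus strand for Gzma, chr13:113180966-113181215 on the minus strand for Gzmk and chr13:33004291-33004540 on the plus strand for Serpinb9. Capitals mark matches, on either strand, to the T-box motif GGTGTGA, the RUNX site TGTGGT, the AP-1 site TGANTCA, the STAT site TTCNNNGAA or the NFAT core GGAAAA.
Gzmb: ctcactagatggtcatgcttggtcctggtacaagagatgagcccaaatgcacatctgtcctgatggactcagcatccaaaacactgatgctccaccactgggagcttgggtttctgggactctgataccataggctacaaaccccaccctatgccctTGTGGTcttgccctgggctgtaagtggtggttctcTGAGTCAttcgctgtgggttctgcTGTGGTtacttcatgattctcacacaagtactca
Gzma: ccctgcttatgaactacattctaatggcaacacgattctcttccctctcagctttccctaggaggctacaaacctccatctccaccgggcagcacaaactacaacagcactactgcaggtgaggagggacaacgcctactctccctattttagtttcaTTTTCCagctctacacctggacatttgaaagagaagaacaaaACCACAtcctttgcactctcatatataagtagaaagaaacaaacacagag
Gzmk: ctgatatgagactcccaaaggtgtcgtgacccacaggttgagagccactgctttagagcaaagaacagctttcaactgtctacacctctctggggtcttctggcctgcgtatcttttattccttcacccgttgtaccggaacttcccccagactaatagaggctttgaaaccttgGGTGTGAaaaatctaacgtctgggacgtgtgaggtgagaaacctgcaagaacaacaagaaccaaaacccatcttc
Serpinb9: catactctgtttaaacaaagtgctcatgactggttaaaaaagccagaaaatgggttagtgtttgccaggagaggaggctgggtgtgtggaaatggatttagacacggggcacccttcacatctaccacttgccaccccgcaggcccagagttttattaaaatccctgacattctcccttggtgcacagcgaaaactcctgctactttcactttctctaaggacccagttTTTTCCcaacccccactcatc
The Gzmb window held 2 RUNX matches, the nearer ending 29 bases before the start, and 1 AP-1 match. Gzma held 1 RUNX and 1 NFAT match, Gzmk 1 T-box match and Serpinb9 1 NFAT match. Over all 32851 windows of this length, the T-box motif was present in 3.33%, RUNX in 14.0%, AP-1 in 6.75%, STAT in 7.02% and NFAT in 20.4%. A match describes the letters of the window only. The RefSeq start of Gzmb (56262334) lies upstream of the 5′ end of the GENCODE vM21 gene (56262260), and the GENCODE model of Gzmk extends far upstream of the RefSeq start, to 113225908. The GENCODE gene of Serpinb9 also begins upstream of its RefSeq start, at 33003250 against 33004541. Distances of matches hold for the RefSeq start only. Gzma and Gzmk are neighbors on chromosome 13, 70.6 kb apart. Gzmb lies on chromosome 14 in a cluster with Gzmc, 24.2 kb away, and other granzyme genes.

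None of the 10 genes passed the test of cKO against WT. With edgeR's quasi-likelihood test, 0 of 10 had an adjusted p under 0.05, where 0% of the 15315 genes tested did, and 0 of 10 had an unadjusted p under 0.05, against 1.81% of all genes. DESeq2 also gave 0 of 10 at either threshold, where 2 genes in all had an adjusted p, and 2.01% an unadjusted p, under 0.05. In the edgeR fit, 5 genes had a log2 fold change of cKO over WT above 0 and 5 below, with a median of 0.06 beside 0.04 over all genes. Without WT replicate 2 it was 4 above and 6 below, with a median of -0.10 beside -0.01 over all genes, and 0 of 10 again had an unadjusted p under 0.05 from edgeR, against 3.01% of all genes. At an adjusted p under 0.05 the edgeR count was then also 0 of 10, against 0.00654% of all genes. DESeq2 without that library gave 1 of 10, Ctsw, at an unadjusted p under 0.05, where 2.42% of all genes passed. Prf1 was the 1 gene of the 10 whose groups did not overlap, with cKO higher. Among all genes, 8.24% did not overlap, 5.01% with cKO higher and 3.23% with cKO lower. Without WT replicate 2 it was again Prf1 alone, and the shares over all genes were 16.3%, 8.36% and 7.94%. The adjusted p was 0.984 or higher for every one of the 10 genes with edgeR on all libraries and rounded to 0.997 for each without WT replicate 2.

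**Figure D2:**
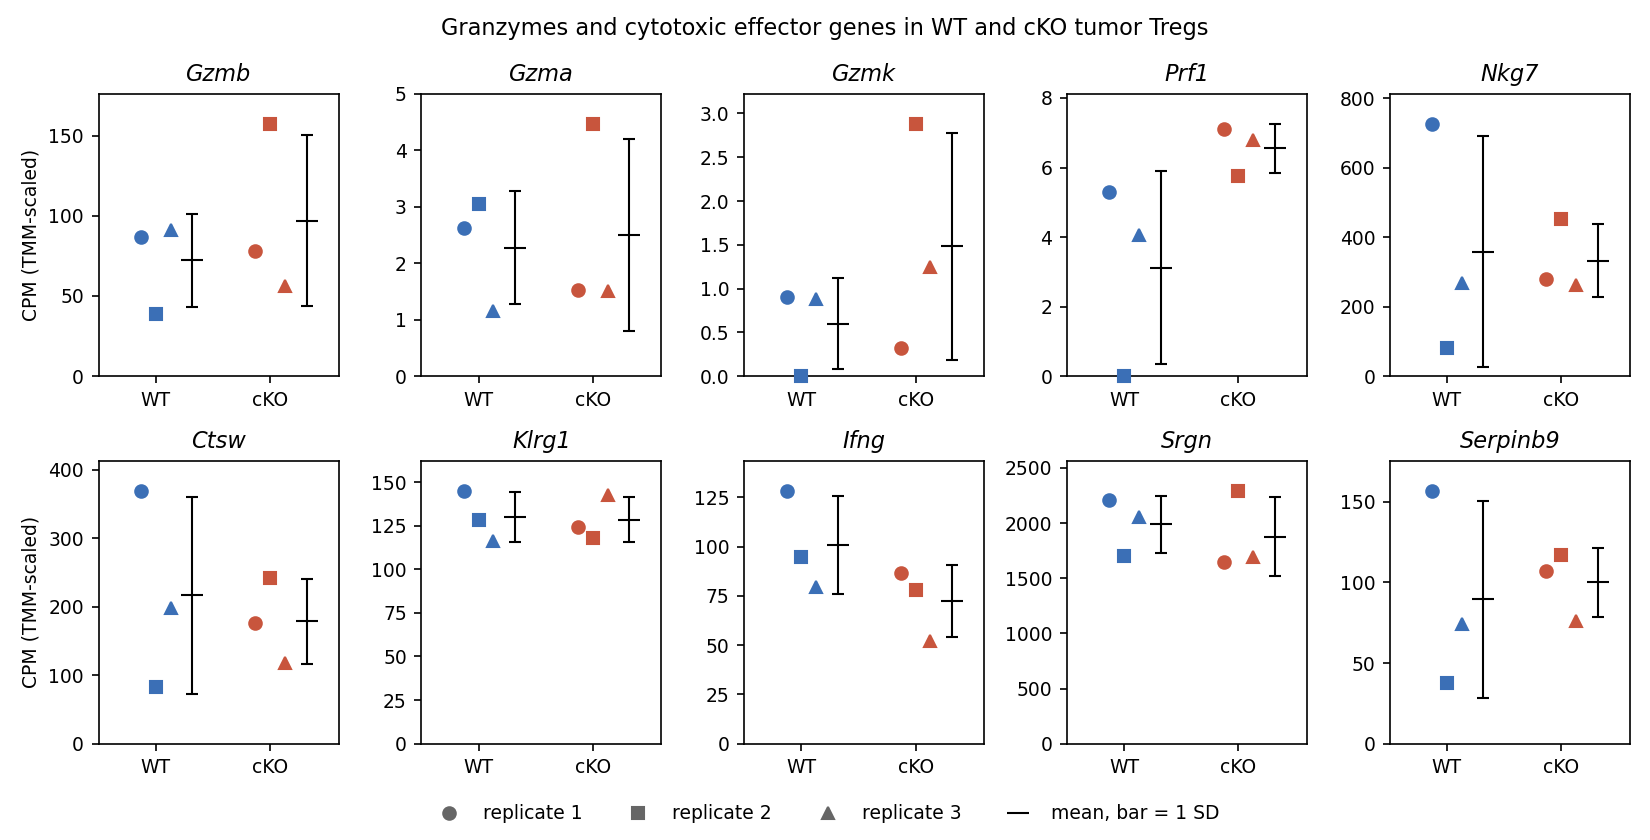
CPM of each of the 10 genes in the WT (blue) and cKO (red) libraries, with a panel and a linear axis from 0 per gene. The shape gives the replicate number, and the black bar is the mean with 1 SD (n = 3 libraries). The cKO points are above all WT points for Prf1 alone, and WT replicate 2 is at 0 for Prf1 and Gzmk.

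Gzmb (chromosome 14 of GRCm38, 56258838 to 56262260) encodes granzyme B, which cleaves after aspartate and activates caspases. It was at 86.6, 38.7 and 91.3 CPM across WT replicates 1 to 3, against 77.8, 157 and 56.0 CPM across cKO replicates 1 to 3. The highest library was in the cKO group and the lowest in the WT group, and the groups overlapped widely. Means were 72.2 ± 29.1 CPM for WT and 97.1 ± 53.4 CPM for cKO (SD, n = 3). From edgeR, the log2 fold change was 0.43 (95% interval -0.62 to 1.47, unadjusted p = 0.369). Without WT replicate 2 it was 0.13 (-0.70 to 0.96), with WT replicates 1 and 3 averaging 88.9 ± 3.29 CPM. Without cKO replicate 2 it was -0.11, so that 1 cKO library set the sign.

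Gzma (chromosome 13, 113093825 to 113100981) encodes a granzyme that cleaves after basic residues. It had 55, 65 and 22 counts across WT replicates 1 to 3, against 33, 93 and 34 counts across cKO replicates 1 to 3. Means were 2.28 ± 1.00 CPM for WT and 2.50 ± 1.70 CPM for cKO (SD, n = 3). The groups overlapped, and cKO replicate 2 was again the highest. Its log2 fold change was 0.14 (95% interval -1.59 to 1.86), and 0.40 (-0.95 to 1.76) without WT replicate 2.
Gzmk (chromosome 13, 113171608 to 113225908), also a protease with specificity for basic residues, had 19, 0 and 17 counts in the WT libraries and 7, 60 and 28 counts in the cKO libraries. It was highest in cKO replicate 2, at 2.88 CPM against 0.325 and 1.25 CPM in the other cKO libraries. Its fitted log2 fold change was 1.3 (95% interval -1.93 to 4.54), 0.73 (-1.04 to 2.49) without WT replicate 2 and 0.39 without cKO replicate 2. The span of the Gzmk gene overlaps that of Esm1 on the other strand, but whether their exons overlap was not examined. The sources used here do not give the strand setting of the counting, so any reads from shared exons could not be told apart. All 3 granzymes thus had their highest value in cKO replicate 2.

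Prf1 (chromosome 10, 61297833 to 61304680) encodes perforin. It had 111, 0 and 78 counts across WT replicates 1 to 3, against 153, 120 and 153 counts across cKO replicates 1 to 3, corresponding to 5.31, 0 and 4.07 CPM for WT and 7.10, 5.76 and 6.80 CPM for cKO. Every cKO library was above every WT library, with WT replicate 1 close below cKO replicate 2 (two-sided exact permutation p = 0.1, which is the lowest that 3 against 3 libraries allow). Means were 3.12 ± 2.78 CPM for WT and 6.56 ± 0.701 CPM for cKO (SD, n = 3), and edgeR gave a log2 fold change of 1.07 with a 95% interval of -1.91 to 4.05 and an unadjusted p of 0.428. Without WT replicate 2, where Prf1 was at 0 as were 18.0% of genes of like level, the WT mean was 4.69 ± 0.877 CPM (SD, n = 2). The log2 fold change was then 0.48 (-0.08 to 1.05) with an unadjusted p of 0.0859 from edgeR, and the groups still did not overlap (two-sided exact permutation p = 0.2, the lowest possible for 2 against 3).

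Srgn (chromosome 10, 62493833 to 62527451), the serglycin gene, was at 2211, 1703 and 2053 CPM across WT replicates 1 to 3, against 1648, 2288 and 1697 CPM across cKO replicates 1 to 3. It was even across libraries, the highest being 1.39 times the lowest. Its log2 fold change was -0.08 (95% interval -0.64 to 0.47), and -0.18 (-0.68 to 0.32) without WT replicate 2. Serglycin is also made by myeloid cells, and 6 of 6 myeloid markers were detected. Their summed level was 158 to 620 CPM in the WT group and 212 to 823 CPM in the cKO group. Most of each sum was Lyz2, at 129 to 500 CPM in the WT group and 170 to 625 CPM in the cKO group. The part of such cells in the Srgn values was not tested. In bulk samples, fewer cells of a type and less RNA per cell cannot be told apart.

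Nkg7 (chromosome 7, 43437073 to 43438249) is needed for granule release. Its CPM was 726, 80.7 and 268 across WT replicates 1 to 3, against 281, 452 and 263 across cKO replicates 1 to 3. All 3 cKO libraries lay between WT replicates 1 and 2, which differed 9.0-fold from each other. Fitted by edgeR, the log2 fold change was -0.11 (95% interval -1.68 to 1.46), -0.58 (-1.46 to 0.30) without WT replicate 2, and 0.93 without WT replicate 1. Which WT library was left out thus turned its direction.

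Ctsw (chromosome 19, 5465043 to 5468507) was at 369, 83.5 and 198 CPM across WT replicates 1 to 3, against 176, 242 and 118 CPM across cKO replicates 1 to 3. As for Nkg7, the WT group held both the highest and the lowest library, 4.42-fold apart. For Ctsw the log2 fold change was -0.28 (95% interval -1.46 to 0.90). Without WT replicate 2 it was -0.67 (-1.40 to 0.07) with an unadjusted p of 0.0697 from edgeR and 0.0417 from DESeq2, and without WT replicate 1 it was 0.34. Ctsw overlaps Fibp on the other strand.

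Serpinb9 (chromosome 13, 33003250 to 33017957) was at 157, 37.6 and 74.4 CPM across WT replicates 1 to 3, against 107, 117 and 76.1 CPM across cKO replicates 1 to 3. WT replicates 1 and 2 were again at the ends, 4.17-fold apart, with the cKO libraries between them. Its log2 fold change was 0.16 (95% interval -0.93 to 1.25). That value was -0.21 (-0.88 to 0.46) without WT replicate 2 and 0.84 without WT replicate 1, where the unadjusted p from edgeR was 0.0443.

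Nkg7, Ctsw and Serpinb9 were highest in replicate 1 and lowest in replicate 2 within the WT group, as were Srgn, Prf1 and Gzmk. This order, held by 6 of the 10 genes, was also that of 27.7% of all genes tested and of 6 of the 8 genes read for Treg identity. These were Foxp3, Ikzf2 and Cd4, Cd3d, Cd3e and Cd3g, which conventional CD4 T cells also express. Il2ra and Ctla4 had another order. Of the CD8 T cell markers, 2 of 2 had the order too, as did 1 of 6 NK cell markers, Xcl1, and 0 of 6 myeloid markers. Across WT replicates 1 to 3, Cd8b1 was at 18.5, 5.22 and 12.5 CPM, and Cd8a at 2.06, 0 and 1.88 CPM. Tbx21, which encodes T-bet, a transcription factor of cytotoxic and interferon-γ genes, and Serpina3g, a serpin gene, were picked after their values were seen because they had that order too. Tbx21 was at 66.7, 7.66 and 22.6 CPM across WT replicates 1 to 3, against 36.7, 37.4 and 22.6 CPM across cKO replicates 1 to 3. Serpina3g was at 450, 96.6 and 214 CPM in the WT libraries and at 288, 371 and 189 CPM in the cKO libraries. Serpina3g had a log2 fold change of 0.16 (95% interval -1.05 to 1.37), and -0.23 (-1.01 to 0.55) without WT replicate 2. Tbx21 had means of 32.3 CPM for WT and 32.2 CPM for cKO, and its log2 fold change was -0.47 (-1.36 to 0.41) without WT replicate 2 and reached 1.09 with another library left out. The summed myeloid markers were lowest in WT replicate 1 (158 CPM) and cKO replicate 1 (212 CPM) and at 434 to 823 CPM in the other libraries. These sums were mostly Lyz2, which was highest in cKO replicate 3, whereas Cd68 was highest in WT replicate 2, at 93.1 CPM. The part of myeloid, CD8 T or NK cells in these orders was not tested.

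**Figure D3:**
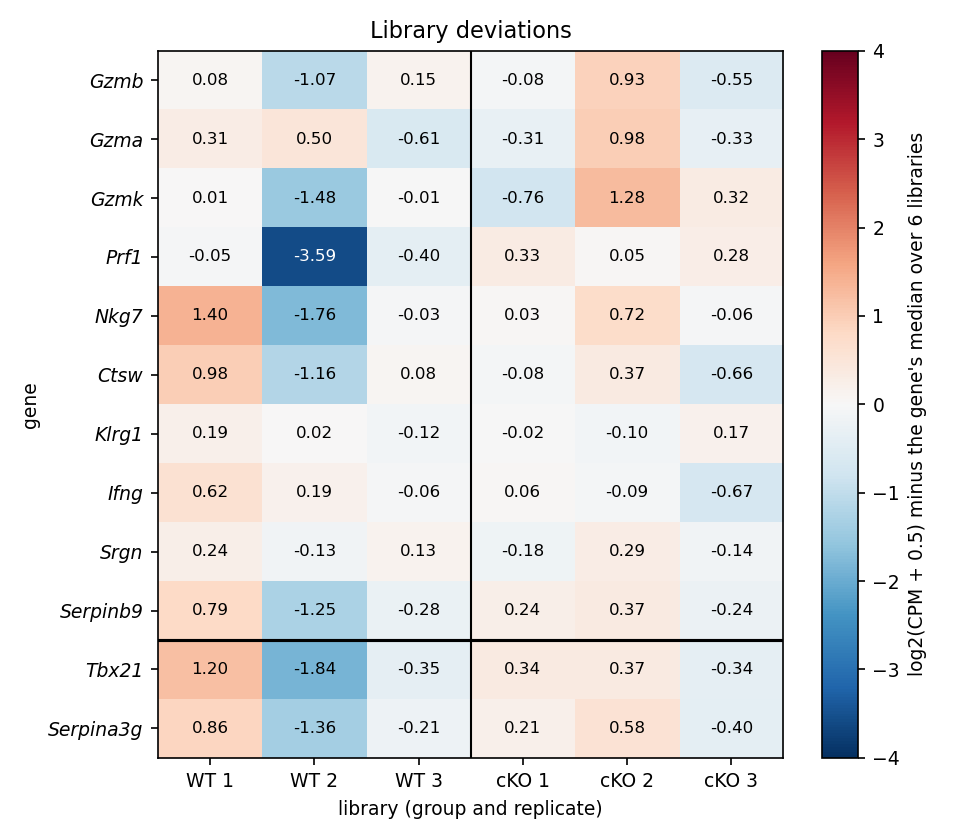
Deviation of each library from the gene's median over 6 libraries, on the log2(CPM + 0.5) scale, for the 10 genes and, under the black line, Tbx21 and Serpina3g. Red is above and blue below the median. Nkg7, Ctsw, Serpinb9, Tbx21 and Serpina3g are high in WT replicate 1 (0.79 to 1.40) and low in WT replicate 2 (-1.16 to -1.84), while Klrg1 stays within -0.12 and 0.19.

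Klrg1 (chromosome 6, 122270596 to 122282882) was the steadiest of the 10 genes. It was at 145, 128 and 116 CPM across WT replicates 1 to 3, against 125, 118 and 143 CPM across cKO replicates 1 to 3, and the highest library was 1.25 times the lowest. This gave a log2 fold change of -0.01 with a 95% interval of -0.36 to 0.33, and -0.02 (-0.38 to 0.33) without WT replicate 2. Both intervals are the narrowest of the 10 genes.

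Ifng (chromosome 10, 118441046 to 118445892) was at 128, 94.7 and 79.6 CPM across WT replicates 1 to 3, against 86.8, 78.1 and 52.1 CPM across cKO replicates 1 to 3. Only cKO replicate 1 exceeded a WT library, replicate 3. Means were 101 ± 24.8 CPM for WT and 72.3 ± 18.0 CPM for cKO (SD, n = 3). With edgeR, the log2 fold change was -0.48 (95% interval -1.06 to 0.10) with an unadjusted p of 0.0925, and -0.52 (-1.09 to 0.04) with a p of 0.0637 without WT replicate 2 (two-sided exact permutation p = 0.2 and 0.4). With each library left out in turn, it stayed between -0.63 and -0.27. Ifng overlaps the unnamed annotation Gm49751 on its own strand.

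**Figure D4:**
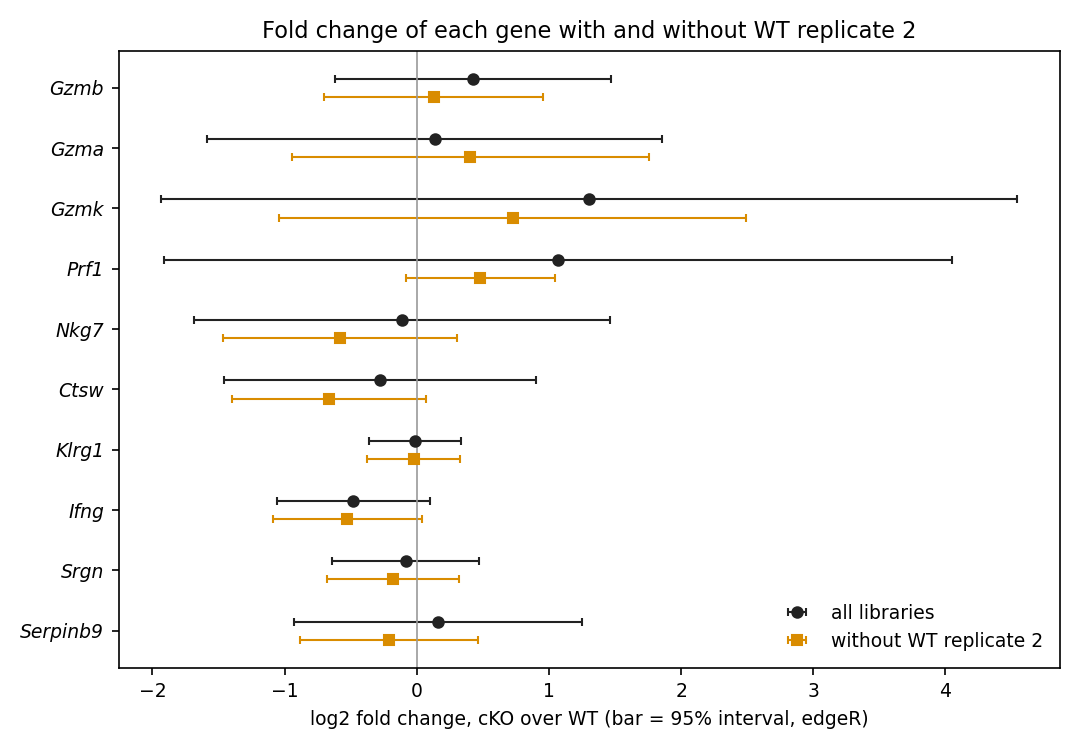
Log2 fold change of cKO over WT for each gene from edgeR, with 95% intervals, over all 6 libraries (black circles) and without WT replicate 2 (orange squares). Every interval includes 0, from the narrow ones of Klrg1 (-0.36 to 0.33) and Srgn (-0.64 to 0.47) to the wide ones of Prf1 and Gzmk.

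The genes around this program gave few differences at an unadjusted p. From edgeR, 0 of them had an adjusted p under 0.05, where 0% of all genes did. Of 7 further granzymes, 3 were listed in the table, Gzmc, Gzmm and Gzmf, at no more than 1.56 CPM in any library, and 0 had an unadjusted p under 0.05 with or without WT replicate 2. In granule maturation and exocytosis, 1 of 13 genes had an unadjusted p under 0.05 with cKO higher, and 0 with cKO lower, against 1.81% of all genes. This was Lamp1, a lysosomal membrane protein gene, at 123, 119 and 150 CPM in the WT libraries and 149, 168 and 206 CPM in the cKO libraries. Its log2 fold change was 0.42 (95% interval 0.01 to 0.82) with an unadjusted p of 0.0457 from edgeR, and 0.36 with a p of 0.0808 without WT replicate 2. Stx11 and Vamp8, membrane fusion proteins of granule release and the next most abundant, had log2 fold changes of -0.22 (-0.91 to 0.47) and 0.12 (-0.49 to 0.73). Leaving out WT replicate 2 gave -0.39 and -0.07, and 0 of the 13 genes had an unadjusted p under 0.05 from edgeR.

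Among 4 death ligands, 1 had an unadjusted p under 0.05, against 1.81% of all genes. This was Lta, which encodes lymphotoxin-α, with cKO lower. It was at 40.2, 69.4 and 43.8 CPM in the WT libraries and 34.4, 31.0 and 27.8 CPM in the cKO libraries, without overlap, as for 3.23% of all genes in this direction. Its log2 fold change was -0.72 (95% interval -1.28 to -0.16), with edgeR p-values of 0.0183 before and 0.984 after adjustment, and -0.44 (-0.75 to -0.12) with an unadjusted p of 0.0119 without WT replicate 2. Tnf and Fasl, the other abundant death ligand genes, had log2 fold changes of 0.42 (-0.33 to 1.16) and 0.27 (-0.43 to 0.96), and 0.12 and 0.06 without WT replicate 2.
A list of 12 genes held inducers of Ifng, its receptor and signaling genes, and the chemokine receptor gene Cxcr3. In it, 1 was lower and 0 were higher at an unadjusted p under 0.05, against 1.81% of all genes. Il18rap, a subunit of the interleukin-18 receptor, was at 87.8, 99.4 and 58.5 CPM in the WT libraries and at 69.8, 43.3 and 43.9 CPM in the cKO libraries. Its log2 fold change was -0.65 (95% interval -1.27 to -0.02), with edgeR p-values of 0.0440 before and 0.984 after adjustment. The unadjusted p was 0.0716 from edgeR without WT replicate 2. Ifngr1 and Cxcr3, among the most abundant of this list, had log2 fold changes of 0.10 (-0.34 to 0.55) and 0.48 (-0.42 to 1.38), and 0.11 and 0.16 without WT replicate 2.

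Of 10 other serpin genes of this kind, 5 were listed, and of 10 transcription factor genes of cytotoxic cells, 9. In both, 0 had an unadjusted p under 0.05 from edgeR, with or without WT replicate 2. The most abundant were Serpina3g, Serpinb6b and Serpinb6a, and Id2, Batf and Stat4. Id2, an inhibitor of helix-loop-helix factors, had a log2 fold change of -0.33 (95% interval -0.91 to 0.25), Batf of 0.12 (-0.57 to 0.79) and Stat4 of 0.23 (-0.19 to 0.64). These values were -0.40 for Id2, -0.12 for Batf and 0.09 for Stat4 without WT replicate 2. Of 19 lectin-like receptors beside Klrg1, 9 were listed, with 0 at an unadjusted p under 0.05 with or without WT replicate 2. The most abundant of them, Klrb1f, Klrc1 and Klrd1, all had 0 counts in WT replicate 2. Of genes averaging 1 to 2 CPM in the other libraries, 47.7% had 0 counts there, as did 18.0% of those at 4 to 8 CPM. Klrb1f and Klrc1 averaged between these levels and Klrd1 below them. Klrc1 was at 2.44 ± 1.31 CPM in the cKO group and 1.15 ± 1.02 CPM in the WT group (SD, n = 3), whereas Klrg1 was at 128 CPM or more on average in both.

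The same genes are hallmarks of CD8 T cells and NK cells, so markers of these cells were read in each library. Of 9 NK markers, 6 were listed and Ncr1, Klra4 and Klra8 were not. Their sum was 8.74 to 51.5 CPM in the WT group and 9.78 to 21.8 CPM in the cKO group. The highest value, in WT replicate 1, was mostly Xcl1 at 48.5 CPM, a chemokine gene that T cells express too. From edgeR, 0 of the 6 had an unadjusted p under 0.05. Without WT replicate 2, 1 did, Xcl1, where 3.01% of all genes passed. Its log2 fold change was then -1.45 (95% interval -2.71 to -0.19), with an unadjusted p of 0.0290 from edgeR and 0.102 from DESeq2. It reached 0.17 with another library left out. Cd8a was at 0 to 2.06 CPM in the WT group and 0.673 to 2.60 CPM in the cKO group, and Cd8b1 at 5.22 to 18.5 and 17.3 to 17.9 CPM. Of 8 genes read for Treg identity, 8 were listed and 0 had an unadjusted p under 0.05 from edgeR, with or without WT replicate 2. Of these, Cd4, Cd3d, Cd3e and Cd3g are not particular to Tregs. Ctla4, an inhibitory receptor gene, was at 1263, 1395 and 1247 CPM in the WT libraries and at 1116, 1236 and 875 CPM in the cKO libraries. Its groups did not overlap, as for 3.23% of all genes in this direction. For Ctla4 the log2 fold change was -0.27 (95% interval -0.76 to 0.21). On these CPM values, WT replicates 1 and 3 also lay above every cKO library. The groups overlapped when TMM scaling was computed anew without WT replicate 2. The T cell receptor subunit genes Cd3d and Cd3e were at 367 to 855 and 787 to 1101 CPM over the 6 libraries. Among the CD8 and NK markers, WT replicate 2 had 0 counts of Cd8a, Klrd1, Klrc1 and Klrb1c but 111 of Cd8b1, 165 of Xcl1 and 20 of Klre1, where the other libraries had 0 to 2 counts of Klre1. Mast cell markers summed to at most 0.24 CPM, with 2 of 6 listed. The part of CD8 T or NK cells in the values of the 10 genes was not tested.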

How the data were processed

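Tumor-infiltrating Tregs of 3 WT and 3 cKO libraries were sequenced (RNA-Seq). Per gene symbol, the values that the authors deposited are expected counts without normalization, made from paired-end reads aligned to GRCm38. The submitters' processing notes name Bowtie2 (version 2.3.4.3) and RSEM (version 1.3.1), and the annotation and use of strand are not given in the sources used here. RSEM divides reads shared between near-identical genes by an estimate, which can blur related granzyme and receptor genes.

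Counts were rounded, and the 15315 genes with at least 1 count were kept. Groups were compared with edgeR (version 4.0.16) in R (version 4.3.3), using TMM scaling, the quasi-likelihood test over all 6 libraries with no covariate, and Benjamini-Hochberg adjustment over all genes. The 95% intervals rest on a standard error equal to the size of the fold change on the log2 scale over the root of F. Level per length was CPM divided by the union of exons in GENCODE vM21, which also gave positions. Single values were compared by exact two-sided permutation tests. Promoters came from RefSeq (GRCm38.p6), where 8 of the 10 genes matched and Ctsw and Klrg1 did not. Replicates of a group differed by more than sampling noise and were used as separate samples.

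Alternatives covered other tests (DESeq2, version 1.42.0, and voomWithQualityWeights of limma, version 3.58.1), edgeR with size factors by median of ratios, with no scaling beyond library size, with robust dispersion, with filterByExpr (minimum count 10) or with a replicate block, and fits that each left 1 library out, for WT replicate 2 also in DESeq2. Scripts were tested on simulated data. The 10 genes and the other lists were chosen with earlier results of these data known. The genes named beside the 10 were, for each list, the 3 with the highest level per length and up to 4 with the smallest unadjusted p under 0.05. Some genes that this rule names are not reported here, and Tbx21 and single cell type markers were named outside it after their values were seen.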

Additional observations from a re-analysis of the deposited data

How the results depend on the processing

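In 140 refits of the 10 genes under the alternatives, 125 kept their direction, 15 changed sign and 0 passed an adjusted p of 0.05. Robust dispersion left the fold change of each of the 10 genes as it was, so its 10 agreements carry no information on direction. WT replicate 2 was left out in both edgeR and DESeq2, so the 140 refits are not independent. Prf1, Gzmk and Ifng kept their sign in all of them, and median-of-ratios scaling and library size only turned none of the 10. With limma's voomWithQualityWeights the log2 fold change was -0.027 for Gzmb and 0.047 for Klrg1. With the replicate block that of Nkg7 was 0.31, and with DESeq2 without WT replicate 2 that of Serpinb9 was -0.21. With each library left out it ranged from -0.11 to 0.70 for Gzmb, -0.58 to 0.40 for Gzma, -0.58 to 0.93 for Nkg7, -0.67 to 0.34 for Ctsw, -0.097 to 0.071 for Klrg1, -0.25 to 0.0024 for Srgn and -0.21 to 0.84 for Serpinb9.

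Genes with an adjusted p under 0.05 numbered 0 with edgeR, 2 with DESeq2, 3 with DESeq2 without WT replicate 2, and 0 to 1 with a library left out. At an unadjusted p under 0.05 there were 277 with edgeR, 140 with filterByExpr, 543 with voomWithQualityWeights and 85 with the replicate block, and 65 (without cKO replicate 3) to 874 (without WT replicate 1) with a library left out. Among the 10 genes, the replicate block in edgeR gave 1 with an unadjusted p under 0.05 (Ifng), as did DESeq2 without WT replicate 2 (Ctsw), against 0 to 1 with a library left out (1 without WT replicate 1, Serpinb9). The number without overlap was 1 to 3 of 10 with a library left out. It was 3 without cKO replicate 1 (Gzmk, Prf1 and Ifng). It was 2 without WT replicate 1 (Prf1 and Serpinb9), WT replicate 3 (Prf1 and Ifng) or cKO replicate 2 (Prf1 and Srgn). Over all genes, 8.24% did not overlap with all libraries and 16.3% without WT replicate 2. That share was not computed for the other libraries left out, so these counts cannot be read as particular to the 10 genes. The median log2 fold change of the 10 genes, 0.06 over all libraries, ranged from -0.18 (without cKO replicate 2) to 0.46 (without WT replicate 1) with a library left out. Over all genes it was 0.04, and 0.11 without WT replicate 1. The cause of these shifts was not tested.

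The labels share replicate numbers but name no shared animal or day, so that the numbers were not taken as pairs. Deviations of same-numbered libraries from their group means correlated at 0.11, -0.09 and 0.21. Deviations from a mean of 3 libraries depend on one another, so these values cannot decide whether libraries were paired. WT replicate 1 correlated best with cKO replicate 2 (0.16), and the highest value of all was that of WT and cKO replicate 3 (0.21). Gzma, Gzmk and Prf1 had 0 to 153 counts per library, and a 2-fold change in either direction lay within the 95% interval of each over all libraries. The intervals narrowed without WT replicate 2, to -0.08 to 1.05 for Prf1 and -0.95 to 1.76 for Gzma.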
